A study of Homo sapiens with 15 samples.

Results

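SR proteins and hnRNP proteins are the large groups of RNA-binding proteins that steer the choice of splice sites. The genes described here are the rows of the count table whose symbol is SRSF followed by a number or begins with HNRNP, 33 of 23368 genes, 12 SRSF and 21 HNRNP. Pseudogene symbols were left out, which removed 3 rows. A mean normalized count of at least 10 was reached by 29 members, the same 29 in each clone (11 SRSF and 18 HNRNP), and these were tested. The 4 others were SRSF12, HNRNPCL1, HNRNPH2 and HNRNPUL2-BSCL2. SRSF12 did not exceed 1.3 in any library and HNRNPH2 did not exceed 4.1, and no read was counted on HNRNPCL1 or on the readthrough gene HNRNPUL2-BSCL2.

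RNA-seq was performed on 3 clones of brain metastatic breast cancer cells, each grown from a single cell and each carrying a doxycycline-inducible FLAG-tagged RBM47 transgene in a retroviral vector. WT6 cells and WT10 cells carry wild type RBM47, and MUT3 cells carry the frameshift mutant RBM47-I281fs. The sample labels give MDA231 as the cell line of all 3 clones, whereas the methods of the study derive WT6 from CN34-BrM2 and WT10 and MUT3 from the MDA231-BrM2 line, so WT6 differs from the others in parental line as well as in clone. Each clone was sequenced untreated and with 1, 2.5, 5 and 25 ng/ml doxycycline, 15 libraries in all with 1 library per clone and dose. No untransduced clone was among the samples, so an effect of doxycycline alone is represented only by MUT3 cells, and a single clone stands for each transgene within a parental line.

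SR proteins pair RNA recognition motifs with a domain rich in arginine and serine, and in many transcripts they bind exonic enhancers and promote use of the nearby splice site. The hnRNP proteins coat nascent transcripts, often silence splice sites, and also act in mRNA export, stability and translation. Many genes of both groups regulate their own level through exons that send the transcript to nonsense-mediated decay. RBM47 is itself an RNA-binding protein with RNA recognition motifs that acts on splicing and on the stability of its target mRNAs.

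The RBM47 row went from 258 normalized counts untreated to 10425 at 25 ng/ml for WT6, from 168 to 19877 for WT10 and from 73.8 to 22084 for MUT3. In WT6 cells the order of the doses was not kept, with 8094 at 2.5 ng/ml and 3966 at 5 ng/ml. Below the top dose MUT3 stood lower than both wild type clones. With 1, 2.5 and 5 ng/ml its row held 92.1, 336 and 949, against 827, 2822 and 8134 for WT10. WT6 held 3137 with 1 ng/ml. In non-clonal cells carrying the mutant transgene, the paper saw neither RBM47 nor FLAG protein on a Western blot. The libraries held between 14955172 and 44771871 reads counted on genes (median 18152381), and 3 reads corresponded to between 1.19 and 4.09 in the normalized unit. Vimentin, a mesenchymal marker, ran from 50755 to 104639 and the hormone receptor gene PGR did not exceed 23.8, while the leukocyte gene PTPRC did not exceed 6.18. Of 8 markers of the cell line 5 were tested, and in WT6 and WT10 the keratins KRT8 (slopes 0.26 and 0.12) and KRT18 (0.29 and 0.16) rose while ERBB2 (-0.13 and -0.11) fell. Of 5 markers of other cell types 1, CD68, was tested and it was not called, and CD3E was at 0 in every library. In the same list PECAM1 did not exceed 9.19, and ALB ran from 0 to 53.0, highest in untreated WT10 and at 42.2 in 1 MUT3 library. The part of such cell state genes in the results below was not tested.

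The promoters of 4 members that were called falling with dose in both wild type clones and have a single listed start are shown. The sequences are the 250 bases before the start in RefSeq (GRCh38.p14), printed 5′ to 3′ on the strand of the gene. Capitals mark the motifs searched on both strands, namely the CCAAT box, the GC box GGGCGG, the ETS-type motif CGGAAG, the E-box CACGTG and the TATA box TATAAA, where overlapping matches are printed as 1 run.
SRSF4 (chr1:29181901-29182150, minus strand): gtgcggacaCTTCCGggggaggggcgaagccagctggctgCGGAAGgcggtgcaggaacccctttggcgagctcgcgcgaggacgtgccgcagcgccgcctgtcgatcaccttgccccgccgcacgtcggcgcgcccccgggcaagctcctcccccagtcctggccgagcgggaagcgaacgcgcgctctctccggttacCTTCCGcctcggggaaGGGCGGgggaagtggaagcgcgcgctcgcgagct
HNRNPA0 (chr5:137754364-137754613, minus strand): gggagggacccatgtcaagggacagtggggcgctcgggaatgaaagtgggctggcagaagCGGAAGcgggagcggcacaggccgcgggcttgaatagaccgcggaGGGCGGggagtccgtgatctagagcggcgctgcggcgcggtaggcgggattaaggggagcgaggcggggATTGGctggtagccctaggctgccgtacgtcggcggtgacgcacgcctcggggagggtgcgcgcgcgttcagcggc
HNRNPM (chr19:8444725-8444974, plus strand): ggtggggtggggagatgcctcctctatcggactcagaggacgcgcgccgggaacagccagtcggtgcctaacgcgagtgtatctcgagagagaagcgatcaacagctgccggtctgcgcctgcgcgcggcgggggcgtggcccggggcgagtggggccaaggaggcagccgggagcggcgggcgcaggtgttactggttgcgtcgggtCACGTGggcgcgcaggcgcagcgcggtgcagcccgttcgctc
HNRNPU (chr1:244864544-244864793, minus strand): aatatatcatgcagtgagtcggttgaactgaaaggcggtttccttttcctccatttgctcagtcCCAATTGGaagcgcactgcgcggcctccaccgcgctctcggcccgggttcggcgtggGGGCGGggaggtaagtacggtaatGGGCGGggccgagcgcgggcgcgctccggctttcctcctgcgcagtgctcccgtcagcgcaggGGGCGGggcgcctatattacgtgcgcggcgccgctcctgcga
These windows were rich in G and C, with 73.6% for SRSF4, 70.4% for HNRNPA0, 71.6% for HNRNPM and 66.0% for HNRNPU. No motif was present in all 4. SRSF4 held 3 matches to CGGAAG and 1 to GGGCGG, HNRNPA0 held 1 CCAAT box, 1 GC box and 1 ETS-type motif, HNRNPM held 1 match to CACGTG, and HNRNPU held 3 matches to GGGCGG and 2 overlapping matches to CCAAT. None of the 4 held a TATA box. Among the 17 tested members with a single listed start, CGGAAG was present in 8 and CCAAT in 8, against 16.5% and 32.0% of all 35116 listed promoters. GGGCGG was present in 10 of the 17 against 42.6% of all promoters, CACGTG in 3 against 6.34% and TATAAA in 4 against 10.7%. A match describes the letters of the window only.

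The most abundant member was HNRNPA2B1, an A/B type hnRNP that binds nuclear RNA and takes part in RNA transport. Per kb of its canonical transcript it stood at 9021 normalized counts in untreated WT6, 7719 in untreated WT10 and 8233 in untreated MUT3 cells. On the same scale HNRNPAB stood at 6083, 7377 and 7803, and HNRNPK at 6142, 5072 and 5111. SRSF9 was the highest SRSF gene in MUT3 cells with 6199.6, while SRSF2 reached 4057 in WT6 cells, where SRSF9 stood at 3995. The lowest tested SRSF gene per kb was SRSF8, with 242, 294 and 364. Neighbours in the order changed places between clones, as HNRNPM lay above SRSF2 in WT10 and MUT3 and below it in WT6, and with 1 untreated library per clone the order of neighbours was not tested.

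The total of the HNRNP genes was lower at 25 ng/ml than untreated in both wild type clones, a description without a test. Summed over the family, normalized counts at 25 ng/ml were 0.791 of the untreated total in WT6 cells and 0.814 in WT10 cells, against 0.982 in MUT3 cells. The SRSF genes summed to 0.887, 0.889 and 0.958 of the untreated total. Most of the difference came between 5 and 25 ng/ml, since at 5 ng/ml the HNRNP total still stood at 1.01 of the untreated value in WT6 and 0.941 in WT10, and the SRSF total at 1.17 and 0.986. At 25 ng/ml 18 of the 29 members had their lowest value of the clone in WT6 and 20 in WT10, where 30.9% and 36.6% of all tested genes did, and 13 in MUT3, where 21.7% did.

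The WT6 library at 5 ng/ml stood apart. It held the highest value of the WT6 series for 18 of the 29 members, against 22.5% of all tested genes, and the lowest for 0. The scaling matters there, because as a share of all gene reads the HNRNP total was lower at 5 ng/ml (7885 RPM, reads scaled to the same total of gene reads) than in untreated WT6 cells (8475 RPM), whereas on the deposited scale it was slightly higher than untreated. The SRSF total was higher at 5 ng/ml on both scales, with 2374 RPM untreated and 2545 RPM at 5 ng/ml. Its RBM47 count was lower than at 2.5 ng/ml.

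**Figure D1:**
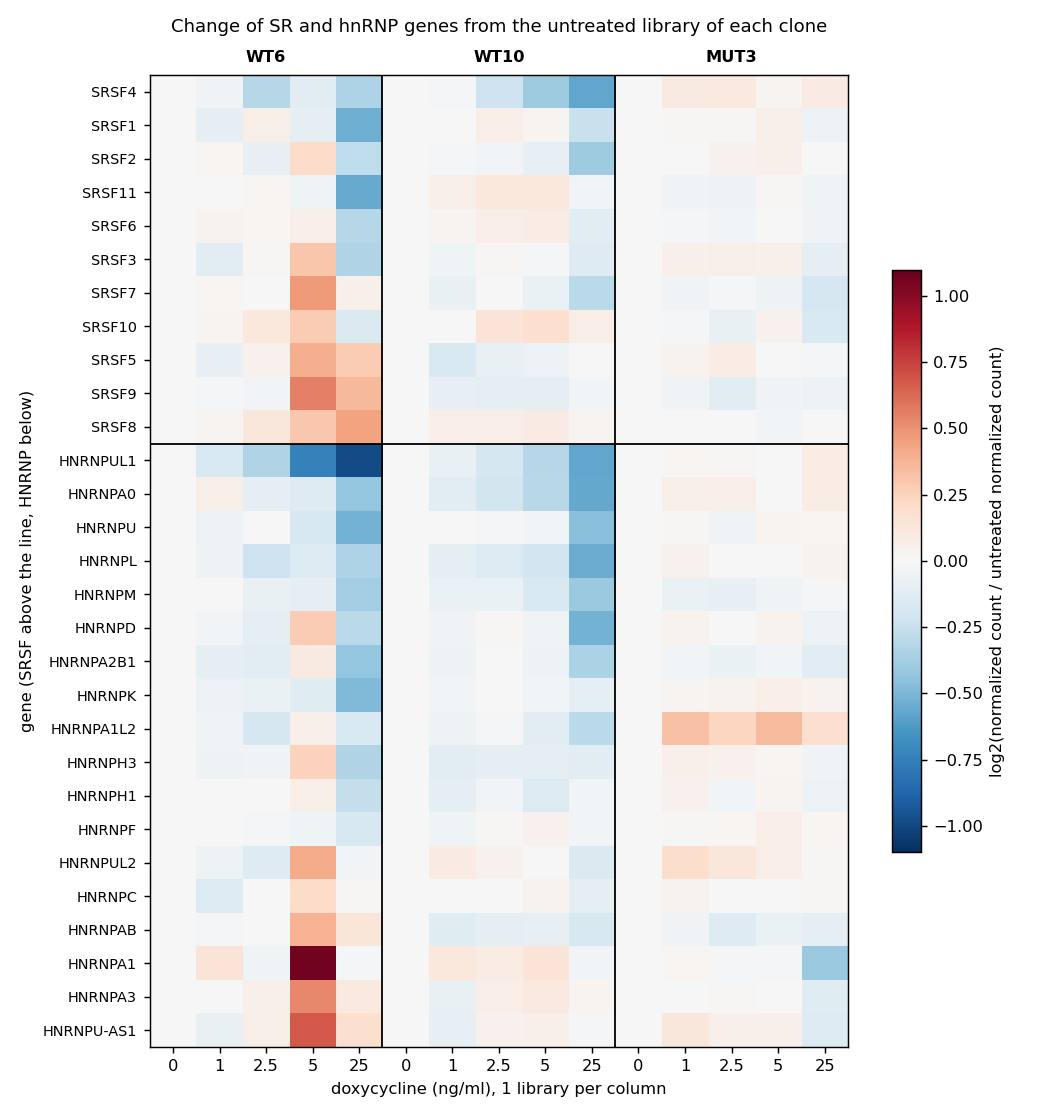
Change of the 29 tested genes from the untreated library of the same clone, as the log2 ratio of normalized counts, with 1 column for each library and dose and the SRSF genes above the HNRNP genes. The 25 ng/ml columns of WT6 and WT10 are mostly blue (HNRNPUL1 fell by 49.5% in WT6), the 5 ng/ml column of WT6 is mostly red, and the MUT3 columns stay near 0.

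The change with dose was tested as a slope, in log2 units of normalized count per unit of log2(dose + 1), with limma in 1 fit over all libraries and 12644 genes. The full range from 0 to 25 ng/ml spans a little under 5 such units. A slope was called at a Benjamini-Hochberg adjusted p under 0.05 over all genes tested. The spread behind each p is the scatter of the libraries around the dose lines, since there are no replicates of a dose. For each gene this fit takes 1 such spread over all clones, so scatter in WT6 also enters the p of WT10 and of MUT3. Leaving out 1 WT6 library moved the genes called in WT10 from 2527 to between 2340 (without 1 ng/ml) and 4142 (without 5 ng/ml).

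In WT6 cells 14 of the 29 members had a slope, against 57.5% of all genes tested. Of these, 11 fell, against 28.3% of all genes, and 3 rose, against 29.2%. In WT10 cells 7 members had a slope, against 20.0% of all genes, and all 7 fell, against 9.83%. In MUT3 cells 0 members had a slope, against 0% of all genes (0 of 12644 by limma and by edgeR). At an unadjusted p under 0.05 limma passed 0 members and 295 genes in MUT3 cells, and DESeq2 called 0 members and 8 genes. With MUT3 fitted alone, limma called 0 members and 176 genes. In that fit 4 members and 1346 genes passed an unadjusted p under 0.05. In bulk RNA, less RNA per cell and fewer cells that express a gene cannot be told apart. The median slope of the HNRNP genes was -0.050 in WT6 and -0.035 in WT10, and that of the SRSF genes -0.049 and -0.024, where the median of all genes was 0.0053 and -0.0027. The WT6 medians depend on the library at 25 ng/ml, without which they were 0.024 for HNRNP and 0.10 for SRSF.

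The same 6 genes, HNRNPUL1, HNRNPA0, SRSF4, HNRNPU, HNRNPL and HNRNPM, fell in both wild type clones, against 7.34% of all genes, and 0 rose in both. They were also the 6 members for which the average of the WT6 and WT10 slopes differed from MUT3, a comparison that called 24.6% of all genes, and all 6 were lower in the wild type clones, against 14.6%. The comparisons share the wild type libraries, so this is no separate evidence. Below 25 ng/ml the RBM47 row was lower in MUT3 than in either wild type clone at every dose. The part of this lower induction in the comparison with MUT3 was not tested. SRSF4 was the only SRSF gene among them.

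HNRNPUL1 (chr19:41768401-41813692, plus strand on hg19), a relative of hnRNP U with roles in RNA processing and in the DNA damage response, changed most. Its normalized counts for WT6 were 13088, 11673, 10401, 7820.4 and 6608 at 0, 1, 2.5, 5 and 25 ng/ml. In WT10 cells they were 12042, 11381, 10518, 9675 and 8099.8, and in MUT3 cells 11596, 11760, 11689, 11542 and 12271. The values fell at each of the 4 dose steps in both wild type clones and ended below the whole MUT3 range. The drop from untreated to 25 ng/ml was 49.5% in WT6 and 32.7% in WT10, where MUT3 was 5.82% higher. The slope was -0.22 ± 0.024 (SE) in WT6 (limma adjusted p = 8.5e-06), -0.13 ± 0.024 (SE) in WT10 (limma adjusted p = 0.00253) and 0.015 ± 0.024 (SE) in MUT3. The mean wild type slope was lower than that of MUT3 by limma at an adjusted p of 0.00109, with a difference of -0.19 ± 0.030 (SE). The steeper slope in WT6 than in WT10 did not pass the threshold (difference -0.10 ± 0.034 (SE), limma adjusted p = 0.0644). With length and GC trends removed this difference was called (-0.090, limma adjusted p = 0.0099).

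A drop at each of the 4 dose steps was seen in WT6 for 4 members (HNRNPUL1, HNRNPM, HNRNPK and HNRNPF), against 8.76% of all genes. In WT10 it was seen for 6 (HNRNPUL1, HNRNPA0, HNRNPL, HNRNPU, SRSF2 and SRSF4), against 9.63%, and in MUT3 for 0, against 0.989%. HNRNPUL1 was the 1 member that did so in both wild type clones, against 2.48% of all genes.

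HNRNPU (chr1:245003940-245027862, minus strand on hg19), a scaffold protein of the nuclear matrix that binds RNA and chromatin, is the relative after which HNRNPUL1 is named. Its counts were 19924, 19002, 19812, 17616 and 13857 for WT6, 17963, 17909.8, 17778, 17580.3 and 13085 for WT10 and, for MUT3, 21386, 21584, 20799, 21882 and 21654. In WT10 cells nearly all of the decrease came at the last dose. The slopes were -0.11 ± 0.027 (SE), -0.10 ± 0.027 (SE) and 0.0049 ± 0.027 (SE), and the difference of the wild type mean from MUT3 was -0.11 ± 0.033 (SE) (limma adjusted p = 0.0264). The row HNRNPU-AS1, named as its antisense RNA, took the opposite sign in WT6 with 0.071 ± 0.046 (SE), which did not pass the threshold (limma adjusted p = 0.197). Its counts in WT6 cells were 1234, 1169, 1292, 1969 and 1393, highest at 5 ng/ml, in WT10 cells 1257, 1180.5, 1303, 1307 and 1249, and in MUT3 cells 1718, 1872, 1784, 1787 and 1550.4. Counting at the default of HTSeq uses the strand, but whether the library kit kept it is not given in the sources used here, and without a kept strand reads from HNRNPU and its antisense partner cannot be told apart. The same limit holds for other members that overlap a gene on the opposite strand, such as HNRNPUL1 (TGFB1), HNRNPA2B1 (CBX3) and SRSF2 (MFSD11). No such overlap is listed for SRSF4, HNRNPA0, HNRNPL or HNRNPM.

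HNRNPA0 (chr5:137081340-137090052, minus strand on hg19) binds AU-rich elements and stabilizes stress-responsive mRNAs. Its counts were 6458, 6746, 5999, 5865 and 4808 in WT6, 7885, 7225, 6865, 6395 and 5341 in WT10 and 6403, 6704, 6731, 6398 and 6788 in MUT3 cells. At 25 ng/ml both wild type values lay below every MUT3 value, although untreated WT10 cells were the highest of all 15 libraries. The slopes were -0.10 ± 0.021 (SE), -0.12 ± 0.021 (SE) and 0.011 ± 0.021 (SE), and the wild type mean differed from MUT3 by -0.12 (limma adjusted p = 0.00585).

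HNRNPL (chr19:39327010-39342987, minus strand on hg19), which binds CA-rich RNA and is known for repressing exons of the lymphocyte gene PTPRC, had counts of 11723, 11286, 10027, 10543 and 9268 in WT6 cells. In WT10 cells the counts were 10485, 9813, 9451, 9075 and 7179, and in MUT3 cells 9424, 9749, 9391, 9472 and 9693. WT6 cells started above MUT3 and ended just below it, and WT10 cells ended well below it. The slopes were -0.070, -0.12 and 0.0051, with a difference of the wild type mean from MUT3 of -0.10 ± 0.026 (SE) (limma adjusted p = 0.0158).

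HNRNPM (chr19:8509651-8553998, plus strand on hg19) binds GU-rich motifs and is known for its part in the splicing programme of epithelial to mesenchymal transition. Its counts were 8261, 8213, 7795, 7653 and 6345 in WT6, 11374, 10832, 10834, 10098 and 8569 in WT10 and 11695, 11085, 10957, 11288 and 11537 in MUT3 cells. The drop at 25 ng/ml was nearly equal in the wild type clones, 23.2% in WT6 and 24.7% in WT10. The slopes were -0.084, -0.087 and 0.0013, with a difference from MUT3 of -0.087 ± 0.026 (SE) (limma adjusted p = 0.0281). HNRNPM stands on a gene list that the study chose on these same libraries, so its direction here is not independent evidence.

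SRSF4 (chr1:29474255-29508412, minus strand on hg19) is one of the larger SR proteins. Its counts were 1702, 1656, 1372, 1568 and 1344 in WT6, 2025, 1995, 1724, 1547 and 1363 in WT10 and 2176, 2329.6, 2348, 2224 and 2314 in MUT3 cells. Every library of the wild type clones lay below the lowest MUT3 value, the untreated ones included, and the fall was larger in WT10 (32.7%) than in WT6 (21%). The slopes were -0.069 ± 0.026 (SE), -0.13 ± 0.026 (SE) and 0.010 ± 0.025 (SE), with a difference from MUT3 of -0.11 (limma adjusted p = 0.0195). The WT6 and WT10 slopes did not differ beyond the threshold (limma adjusted p = 0.229).

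These 6 calls rest in good part on the top dose. Over 24 alternative settings per gene and clone, the call and direction were kept in WT6 in 24 for HNRNPUL1, 22 for HNRNPM, 21 each for HNRNPA0, HNRNPL and HNRNPU, and 18 for SRSF4. In WT10 they were kept in 21 for HNRNPUL1 and 22 for each of the other 5, and leaving out the WT10 library at 25 ng/ml ended all 6. That fit called 6 of all 12644 genes in WT10, against 2527 otherwise. The exceptions in WT6 include the library at 25 ng/ml for every gene but HNRNPUL1. The 24 leave out log2 RBM47 count in place of dose, clones fitted alone and Pearson correlation. With log2 RBM47 count 0 members were called in WT6 and in WT10, where 2 and 89 of 12644 genes were. Clones fitted alone called 1 member in WT6 and 9 in WT10, against 3945 and 3587 of all genes. Fits without a library of another clone count among the 24 and hardly move a slope, since every clone has its own line. They do change the shared spread behind its p. Against MUT3, leaving out MUT3 at 25 ng/ml ended the call of all 6, in a fit that called 3 of all 12644 genes, against 3114 otherwise.

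Other HNRNP genes fell in 1 wild type clone. HNRNPK, which binds poly(C) tracts, had counts of 17743, 16957, 16890.3, 16216 and 12701 in WT6 cells, a slope of -0.10 ± 0.022 (SE) (limma adjusted p = 0.00128). In WT10 cells its counts were 14652, 14374, 14733, 14315 and 13688 and in MUT3 cells 14765, 15113, 15138, 15563 and 15167, with slopes of -0.020 and 0.0083. Its difference between WT6 and WT10 did not pass the threshold (limma adjusted p = 0.0808), so the clones are not shown to differ in this fit. With length and GC trends removed HNRNPK was also called in WT10 (-0.051). Its difference between WT6 and WT10 was then called too (-0.059, limma adjusted p = 0.0352). HNRNPA2B1 was called in WT6, with counts of 32729.7, 30436, 30140.1, 34949 and 24313 and a slope of -0.076 (limma adjusted p = 0.0425), and without the library at 25 ng/ml that slope was 0.027. In WT10 cells its counts were 28003, 26896, 27841, 27005 and 22049.8, with a slope of almost the same size, -0.071, which did not pass (limma adjusted p = 0.113). In MUT3 cells its counts were 29868, 29269, 28383, 29332 and 27433. HNRNPD, known as AUF1 for its part in the decay of AU-rich mRNAs, was called in WT10 with a slope of -0.11 ± 0.037 (SE) (limma adjusted p = 0.0491). Its WT10 counts were 9646, 9389, 9730.0, 9356 and 6714, flat up to 5 ng/ml with the whole drop at the last dose.

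The 3 tested genes of the H and F type, which bind runs of G, were not called. HNRNPH1 had slopes of -0.054, -0.0045 and -0.017 in WT6, WT10 and MUT3, HNRNPH3 -0.053, -0.018 and -0.013, and HNRNPF -0.039, -0.00075 and 0.0066. With length and GC trends removed all 3 were called lower in WT6, with -0.11, -0.10 and -0.074, and lower than in MUT3 for the wild type mean. HNRNPC, which binds U tracts and is known for blocking exons that arise from Alu elements, ran from 10037 to 13137 over the 15 libraries with slopes of 0.025, -0.019 and 0.00017. HNRNPAB and HNRNPA3 were not called in any clone, with WT6 slopes of 0.047 and 0.046. With length and GC trends removed HNRNPAB was called lower in WT6 (-0.060) and HNRNPA3 higher (0.14). HNRNPUL2, whose locus overlaps the readthrough gene HNRNPUL2-BSCL2 on the same strand, had slopes of 0.019, -0.041 and -0.011. HNRNPH2 likewise overlaps a readthrough gene, RPL36A-HNRNPH2, and reads that HTSeq could not give to a single gene went into a tally outside the genes.

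The counts of HNRNPA1, a major hnRNP that has many processed copies in the genome, are uncertain. They were 373, 412, 361, 777 and 369 in WT6, 283, 308, 300.2, 313 and 278 in WT10 and 366, 373, 364, 362 and 277 in MUT3 cells. These are far below its relatives, and 1 library, WT6 at 5 ng/ml, stood apart from the other 14. Its retrotransposed copy HNRNPA1L2 had counts of the same size, 415, 402, 366, 432 and 369 in WT6, 486, 467, 483, 445 and 395 in WT10 and 324, 404, 383, 413 and 368 in MUT3. At the default settings of HTSeq, reads that map to several places are left out of the gene counts. Neither had a called slope, with 0.031 ± 0.073 (SE) and -0.027 ± 0.034 (SE) in WT6 cells. With length and GC trends removed, HNRNPA1L2 was called lower, with -0.16 in WT6 and -0.10 in WT10.

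Of the 11 tested SRSF genes, 7 were called in WT6 and 1 in WT10, beside 57.5% and 20.0% of all genes. In WT6 cells SRSF1, SRSF4, SRSF6 and SRSF11 fell and SRSF5, SRSF8 and SRSF9 rose, while in WT10 cells SRSF4 alone was called. SRSF1, the SR protein first purified as splicing factor 2, had counts of 6536, 6093, 6826, 6081 and 4503 in WT6, 6869.6, 6848, 7214, 7023 and 5799 in WT10 and 7103, 7152, 7156, 7428 and 6786 in MUT3 cells. Its WT6 values were level up to 5 ng/ml and fell at 25 ng/ml, with a slope of -0.11 ± 0.029 (SE) (limma adjusted p = 0.00476). In WT10 its slope was -0.051 (limma adjusted p = 0.241). SRSF11, an SR protein known for neuronal microexons, fell in WT6 by 31.8% at 25 ng/ml with a slope of -0.12 ± 0.028 (SE), and was 1.86% lower in WT10. The difference of its slopes between the clones did not pass (limma adjusted p = 0.0639). SRSF6 fell in WT6 with a slope of -0.067 (limma adjusted p = 0.0376), and in WT10 its slope was -0.024. Removal of length and GC trends ended the WT6 calls of SRSF1 (-0.028) and SRSF6 (-0.0078), and without WT6 at 25 ng/ml SRSF6 had 0.024.

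SRSF2, known as SC35 and as a marker of nuclear speckles, was not called, although its WT10 counts fell at each step. They were 7385, 7269, 7231, 6932 and 5627 in WT10 cells, 7659, 7779, 7193, 8816 and 6329 in WT6 cells and 6698, 6733, 6937, 6966 and 6708 in MUT3 cells, with a WT10 slope of -0.085 ± 0.030 (SE) (limma adjusted p = 0.059). With length and GC trends removed SRSF2 was called lower, with -0.14 in WT6 and -0.11 in WT10. Its wild type mean was then called lower than MUT3 by -0.13. SRSF3, the smallest SR protein and the SRSF gene with the highest mean count, had 8331, 7702, 8393, 10306 and 6606 in WT6, 8629.8, 8355, 8713, 8508 and 7800.3 in WT10 and 9617, 10022, 10086, 9978 and 8949.5 in MUT3 cells. It peaked at 5 ng/ml in WT6, and its slopes were -0.049, -0.028 and -0.026. SRSF7 and SRSF10 were not called in any clone, with WT6 slopes of 0.032 and -0.025. With length and GC trends removed SRSF7 was called lower in WT10 (-0.10) and SRSF10 higher in WT6 (0.092).

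SRSF8, an intronless relative of SRSF2 that arose by retrotransposition, was the 1 member whose slope differed between WT6 and WT10, a comparison that called 14.4% of all genes. Its counts were 1041, 1062, 1132, 1281 and 1419 in WT6, 1268, 1330.0, 1333, 1351 and 1293 in WT10 and 1567, 1564, 1574, 1534 and 1562 in MUT3 cells. It was the 1 member that rose at each of the 4 dose steps in WT6, against 6.32% of all genes. The slope was 0.10 ± 0.022 (SE) in WT6 (limma adjusted p = 0.0011) and 0.0033 ± 0.022 (SE) in WT10, and their difference 0.10 ± 0.031 (SE) (limma adjusted p = 0.043). This difference lay close to the threshold, and SRSF8 lost the call in 13 of the 15 fits that left out 1 library. SRSF5 and SRSF9 rose in WT6 with slopes of 0.082 ± 0.029 (SE) and 0.10 ± 0.035 (SE), and were highest at 5 ng/ml with 3559 and 6745 counts, against 2698 and 4602 untreated. With length and GC trends removed both turned direction, to -0.037 and, with a call, -0.049.

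**Figure D2:**
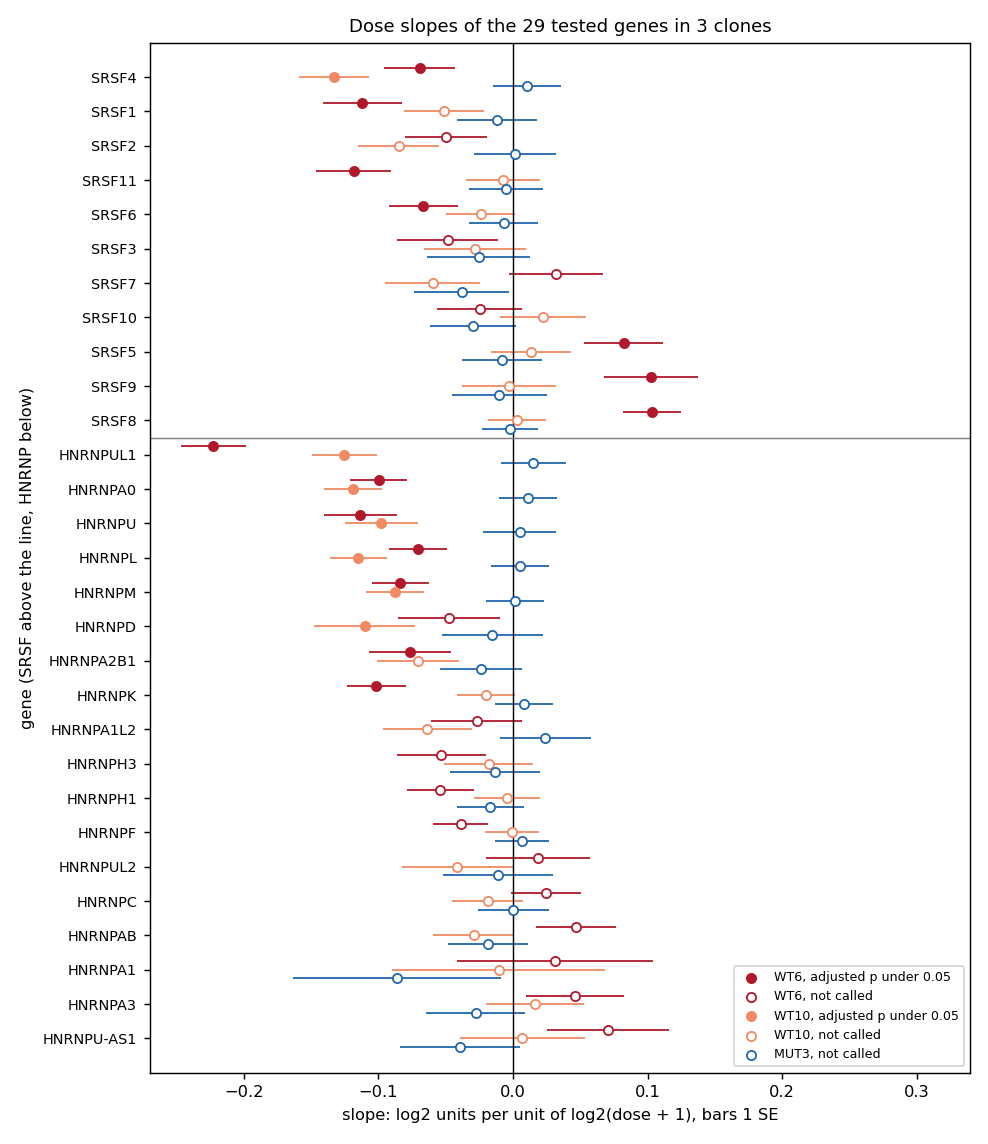
Dose slopes of the 29 tested genes in WT6, WT10 and MUT3, in log2 units per unit of log2(dose + 1), with bars of 1 SE and filled points for slopes with a limma adjusted p under 0.05. HNRNPUL1 in WT6 lies farthest to the left at -0.22, 14 WT6 and 7 WT10 points are filled, and no MUT3 point is.

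Transcript length moved with the dose slopes in WT6. Spearman's rho between slope and canonical transcript length across genes was -0.52 over 12122 tested genes in WT6, -0.16 in WT10 and 0.10 in MUT3, given as a description since genes share their libraries. Over the 28 members with a length it was -0.29 in WT6, 0.044 in WT10 and -0.15 in MUT3. The members that rose in WT6 include short transcripts, with 1152 bases for SRSF9 and 1496 for SRSF5, but SRSF8 has 4306. The longest, HNRNPA0 with 8713 bases, SRSF10 with 7656 and HNRNPU with 6867, include 2 that fell.

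When each library's trends with length and GC content were removed, 16 members were called in WT6 (3 higher and 13 lower), against 58.6% of all genes. Of the 14 called before, 7 kept call and direction, SRSF9 was called in the opposite direction, and SRSF1, SRSF5, SRSF6, HNRNPA0, HNRNPA2B1 and HNRNPU lost the call. In WT10 15 members were called, all lower and including all 7, against 36.1%. The wild type mean differed from MUT3 for 11 members (1 higher and 10 lower), of which 4 were among the 6, against 36.4%. HNRNPUL1 kept -0.19 in WT6 and -0.10 in WT10, and SRSF4, HNRNPL and HNRNPM stayed called with WT6 slopes of -0.13, -0.15 and -0.13. HNRNPU and HNRNPA0 were no longer called in WT6, with -0.015 and 0.012, while in WT10 they kept -0.093 and -0.11. SRSF8 kept its rise with 0.15. The slope then differed between WT6 and WT10 for 7 members, against 1849 of 12122 genes. It was higher in WT6 for SRSF7, SRSF8, HNRNPA0, HNRNPC and HNRNPU, and lower for HNRNPK and HNRNPUL1. The part of length and GC in the changes of single genes was not tested.

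**Figure D3:**
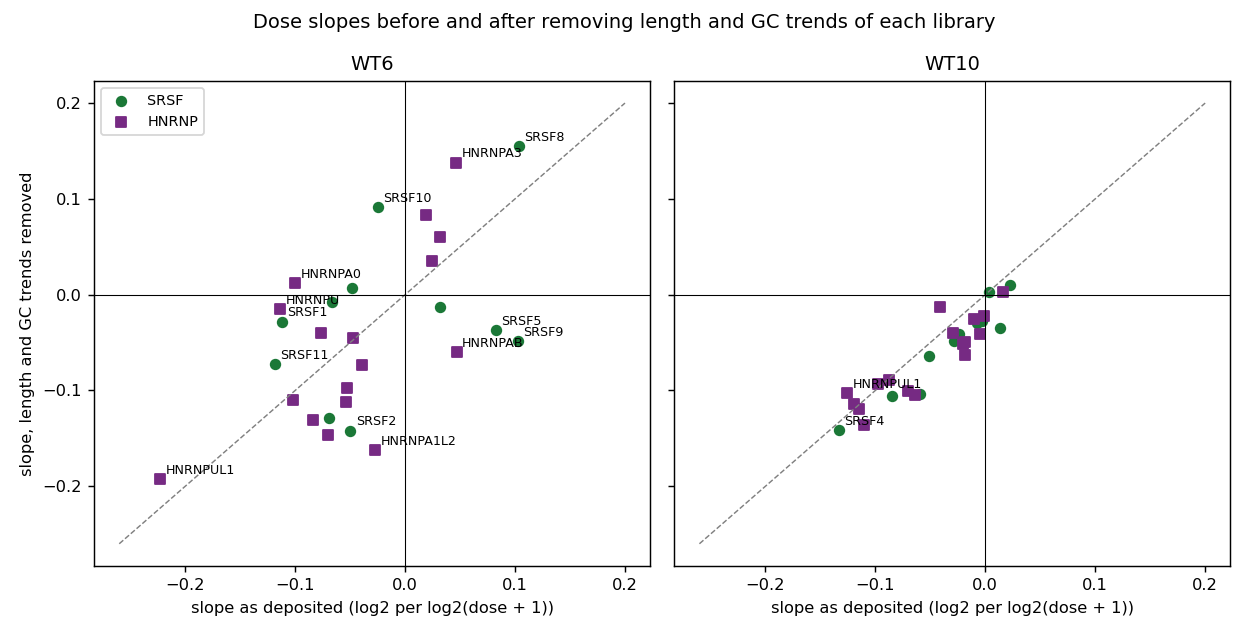
Dose slopes of 28 members in WT6 and WT10 as deposited (horizontal axis) and after removal of each library's length and GC trends (vertical axis), both in log2 units per unit of log2(dose + 1), with the dashed line marking equal values. Most WT10 points lie below the line, and 7 genes change sign in WT6 (SRSF3, SRSF5, SRSF7, SRSF9, SRSF10, HNRNPA0 and HNRNPAB) and 1 in WT10 (SRSF5, from 0.013 to -0.035).

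The clones also differed before any doxycycline. The fitted level of 13 members differed between untreated WT6 and the mean of WT10 and MUT3, against 64.3% of all genes, with 7 higher and 6 lower in WT6. The higher ones included HNRNPUL2 (1.47-fold), SRSF10 (1.42-fold) and HNRNPF (1.35-fold). The lower ones included SRSF8, SRSF9 and HNRNPM, which were higher in the other clones by 1.4-fold, 1.38-fold and 1.34-fold. Between WT10 and MUT3, clones of 1 parental line, 6 members differed, against 28.2% of all genes. HNRNPA3, HNRNPH1, HNRNPU-AS1 and SRSF8 were lower in WT10, by 1.52-fold, 1.5-fold, 1.47-fold and 1.2-fold, and HNRNPA0 and HNRNPA1L2 were higher. Of the 6 members that fell in both wild type clones, HNRNPA0 was the 1 whose untreated level differed between WT10 and MUT3. For WT6 against the others, clone and parental line cannot be told apart, and for WT10 against MUT3, clone and transgene cannot.

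Partner genes of SR and hnRNP proteins were counted in the same fit, where 28.3% of all genes fell in WT6 and 9.83% in WT10. Of 9 kinases that phosphorylate SR proteins, 4 fell in WT6 and 0 were called in WT10, and SRPK2 had slopes of -0.13 and -0.030 and PRPF4B -0.18 and -0.069. Of the 3 transportins that carry these proteins into the nucleus, all 3 fell in WT6 and TNPO2 in WT10. TNPO1 had a slope of -0.27 in WT6 and -0.044 in WT10, TNPO2 -0.24 and -0.10, and TNPO3 -0.18 and -0.048. Of 26 SR-related proteins, which carry such domains without being classical SR proteins, 16 fell and 1 rose in WT6 and 6 fell in WT10. THRAP3 and SCAF4 had slopes of -0.24 and -0.24 in WT6 and -0.12 and -0.13 in WT10.

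Beside the same shares of all genes falling, 28.3% in WT6 and 9.83% in WT10, the other lists gave these counts. Among 18 tested genes of the hnRNP class that carry other names, 10 fell and 3 rose in WT6, and 7 fell and 1 rose in WT10. KHSRP, a factor in mRNA decay and splicing, had slopes of -0.23 and -0.15, and PTBP2, the neuronal relative of the polypyrimidine tract binding protein, rose in WT10 with 0.24. Of 15 tested tissue or exon specific splicing regulators, 12 fell and 1 rose in WT6, and 5 fell and 1 rose in WT10, among them RBFOX2 with -0.26 and -0.17 and TIA1 with -0.33 and -0.16. Of 38 genes of the core spliceosome, 18 fell and 4 rose in WT6 and 13 fell in WT10, with PRPF8 at -0.26 and -0.13. Of 15 genes of nonsense-mediated decay, 6 fell in WT6 and 1, CASC3, in WT10. In MUT3 cells 0 genes of these 7 lists were called. The median WT6 slopes of the lists ran from -0.24 for the transportins to -0.050 for nonsense-mediated decay, where the median of all genes was 0.0053. The WT10 medians ran from -0.072 for the hnRNP class under other names to -0.020 for the kinases, beside -0.0027 for all genes. The list counts were not repeated with length and GC trends removed, although slopes moved with transcript length in WT6. The part of length in these counts was not tested.

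Rows of the hnRNP family that the table carries under older symbols are not among the members. HNRPDL and HNRPLL were looked at after the values were seen. HNRPDL, a relative of HNRNPD, fell from 8528 untreated to 4147 at 25 ng/ml in WT6 and from 5384 to 2885 in WT10. In MUT3 cells its values were 5151 and 5069. Its slopes were -0.21 ± 0.048 (SE) in WT6 and -0.19 ± 0.047 (SE) in WT10, with limma adjusted p of 0.00181 and 0.00998. HNRPLL was not called, with -0.034 and -0.077.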

How the data were processed

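Poly(A)-selected RNA of 15 libraries was sequenced as paired-end reads. The authors used STAR for alignment to hg19 and HTSeq (0.5.4 per the submitters' processing notes) for reads per gene, and divided these by a DESeq size factor. The deposited values are therefore a normalized signal, called normalized counts here. HTSeq was run with default settings, which count by strand and leave multi-mapped reads out of the genes; the deposited tally of multi-mapped reads is 0 in every library. The annotation, and whether the library kit kept the strand, are not given in the sources used here. All values came out as whole multiples of 1 read (100%, tolerance 0.001), and the recovered reads served the edgeR and DESeq2 alternatives. Between 57.2% and 60.2% of tallied reads were given to no gene (no feature) or to several (ambiguous) and were left out. The tally does not tell reads off genes from reads on the opposite strand of a gene.

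Genes with a mean of at least 10 in every clone (12644) were fitted with limma 3.58.1 (R 4.3.3) on log2(normalized count + 1) with vooma precision weights, where every clone had its own untreated level and its own line over log2(dose + 1), leaving 9 residual degrees of freedom. Values for each library are given for the 12 members with the largest difference between the mean wild type and MUT3 slopes, the most abundant member of each family, members called in opposite directions in WT6 and WT10 (0), HNRNPM, and at most 3 called genes of each list, by slope only. Genes outside this rule (SRSF8, HNRNPD and others with values or slopes) were added after their values were seen. The members and lists were chosen with earlier results of these data known. Gene positions and lengths came from GENCODE on GRCh37 (91.8% of symbols matched) and promoters from RefSeq on GRCh38.p14, in which 26 tested members matched. Alternatives used pseudocount 10, no filter, TMM, edgeR 4.0.16, DESeq2 1.42.0, no weights, other dose scales, clones fitted alone, Pearson correlation at p under 0.01, removal of length and GC trends by splines with 4 degrees of freedom, and each library left out. The fit was tested on simulated data. Python 3.11.15 was used otherwise.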

Additional observations from a re-analysis of the deposited data

Results flagged for a closer look

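All values are differences of dose slopes in log2 units per unit of log2(dose + 1), each tested in the limma fit over all genes at an adjusted p under 0.05. The average of the WT6 and WT10 slopes minus that of MUT3 was -0.19 for HNRNPUL1, -0.12 for HNRNPA0, -0.11 for SRSF4, -0.11 for HNRNPU, -0.10 for HNRNPL and -0.087 for HNRNPM.

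Among the partner genes the same difference was -0.11 for PRPF4B, -0.19 for SCAF4, -0.20 for THRAP3, -0.19 for SCAF8, -0.21 for KHSRP and -0.15 for MATR3. It was -0.24 for CELF2, -0.23 for TIA1, -0.24 for RBFOX2, -0.16 for TNPO1, -0.17 for TNPO2 and -0.14 for TNPO3. It was -0.23 for DHX8, -0.20 for PRPF8, -0.16 for PRPF4, -0.12 for SMG6 and -0.13 for CASC3, and PTBP2 was higher in the wild type clones with 0.20.

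The slope of WT6 differed from that of WT10 by 0.10 for SRSF8, -0.22 for TNPO1 and -0.13 for TNPO3.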

How the results depend on the processing

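Counts here are members called. No paired analysis was possible because the labels give no replicate numbers; the doses that the clones share enter the fit as the slope. Without the 3 libraries at 25 ng/ml, 9 members (8 higher, 1 lower) were called in WT6 against 14, 0 in WT10 against 7 (4688 and 17 of all genes against 7272 and 2527), 0 for the wild type mean against MUT3 (6 otherwise) and 0 for WT6 against WT10 (1 otherwise); in WT6 HNRNPA2B1 turned to 0.027, SRSF6 to 0.024 and SRSF10 to 0.10, and the median WT6 slopes to 0.10 (SRSF) and 0.024 (HNRNP). At unadjusted p under 0.05 limma then passed 4 members in WT10, 2 for the mean against MUT3 and 3 for WT6 against WT10. Of all genes the mean against MUT3 then called 1 and WT6 against WT10 called 7. With log2 RBM47 count in place of dose 0 members were called in WT6, WT10 and both comparisons of slopes (4, 5, 4 and 0 at unadjusted p). In that setting 2, 89, 0 and 0 of 12644 genes were called. Clones fitted alone gave 1 in WT6, against 3945 of 12644 genes. Pearson correlation gave 5 in WT6 and 3 in MUT3, against 1587 of 17767 and 491 of 17799 genes. Removing length and GC trends gave 15 in WT10, 11 for the mean against MUT3 and 7 for WT6 against WT10. The same setting called 4377, 4418 and 1849 of 12122 genes. In WT6 it turned HNRNPA0 to 0.012, SRSF5 to -0.037, SRSF9 to -0.049, SRSF10 to 0.092, HNRNPAB to -0.060 and DYRK1A to 0.00981. For WT6 against WT10, DESeq2 called 4 members, and no filter, no precision weights and dose in ng/ml called 0 (4 each at unadjusted p). Over all genes these 4 settings called 2433, 1314, 1198 and 222.

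Leaving out 1 library gave 8 to 20 members in WT6 (9 without untreated WT6, 8 without WT6 at 25 ng/ml, 20 without WT6 at 5 ng/ml), 0 to 10 in WT10 (0 without WT10 at 25 ng/ml), 0 in MUT3, 0 to 10 for the mean against MUT3 (0 without MUT3 at 25 ng/ml, 2 without untreated MUT3 or WT10 at 25 ng/ml, 10 without WT6 at 5 ng/ml), 0 to 6 for WT6 against WT10 (1 without untreated WT6, 2 without WT6 at 2.5 ng/ml, 6 without WT6 at 5 ng/ml, 0 without each of the others), 10 to 19 for the untreated level of WT6 and 3 to 14 for that of WT10 against MUT3 (3 without untreated WT10 or MUT3, 14 without WT6 at 5 ng/ml). Of all 12644 genes, these fits called 4623 in WT6 without WT6 at 25 ng/ml and 7891 without WT6 at 5 ng/ml. In WT10 they called 6 without WT10 at 25 ng/ml and 4142 without WT6 at 5 ng/ml. Against MUT3 they called 3 without MUT3 at 25 ng/ml and 4914 without WT6 at 5 ng/ml. For WT6 against WT10 they called 59 without untreated WT10 and 3714 without WT6 at 5 ng/ml. Without WT6 at 25 ng/ml HNRNPA2B1 had 0.027 in WT6 and the medians were 0.10 and 0.024. Over all libraries left out HNRNPA2B1 ran from -0.091 to 0.027 and SRSF6 from -0.10 to 0.024. Among values of single genes and medians under alternatives, 3239 kept their direction and side of the threshold, 175 lost and 66 gained a call, and those reversed or moved are given above. With 1 library per clone and dose, variation between cultures was not measured.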
